A study of Drosophila melanogaster with 12 samples.

Results

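The genes examined here encode the lamins and a set of nuclear envelope proteins of *Drosophila melanogaster*: *Lam*, *LamC*, *LBR*, *Ote*, *bocks*, *MAN1*, *baf*, *koi*, *Msp300* and *klar*. They were chosen by name and by no measured value, though earlier results of these data were known. All 10 were found among the 13968 protein-coding gene models used. RNA Polymerase II (Pol II) carrying the serine 2 phosphate of its C-terminal repeats (S2), the form that travels with elongating polymerase, was mapped by ChIP-seq in Kc167, an embryo-derived cell line. The groups were Kc167 cells transfected against AGO2 (labelled siAGO2, called AGO2 KD), Kc167 cells transfected against LaminB (labelled dsLaminB, called LaminB KD), and mock cells that went through transfection without RNA, with cells of every group collected 3 days later. AGO2 is the Argonaute of the siRNA pathway, and the study asked how its loss bears on Pol II, with LaminB as the other depleted protein. Each group had 2 IP libraries, and each library had its own deposited list of called S2 regions. The knockdown reagent differed between AGO2 KD and LaminB KD, and nothing in the labels says whether replicates came from separate cultures, so the spread between them may be technical.

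Lamins are intermediate filament proteins that form the lamina, a meshwork under the inner nuclear membrane to which silent chromatin is tethered. Flies have a B-type lamin, encoded by *Lam*, which stays anchored to the membrane through its farnesyl tail, and an A-type lamin, encoded by *LamC*. LBR and the LEM-domain proteins Ote, bocks and MAN1 sit in the inner membrane, and baf is a small DNA-bridging protein that LEM domains bind. The SUN-domain protein koi pairs across the envelope with the KASH-domain proteins Msp300 and klar, which link the nucleus to actin and microtubules. *Lam* itself encodes the protein depleted in LaminB KD. Its S2 coverage is no measure of that knockdown, because RNA interference acts on the transcript and not on the gene.

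The start windows of the genes whose starts decide the descriptions that follow were read from the RefSeq Release 6 genome. Each runs from 250 bases before an annotated start to 50 bases after it, 300 bases in all, 5′ to 3′ in the direction of the gene. *Lam* is shown because it encodes the depleted protein, *baf* because its regions in AGO2 KD began just past its start, *Msp300* at its first start, which no region covered, and at the start 7635 bp further in, which a region covered in all 6 lists, and *klar* at the start 49791 bp into the gene, covered in 6 lists as well. Capitals mark matches, on either strand, to TATAAA (the TATA box), TCAGT (a core of the initiator), TATCGATA (the DRE) or GAGAG (the GAGA element), and matches may overlap.
Lam (chr2L:5542230-5542529, plus strand): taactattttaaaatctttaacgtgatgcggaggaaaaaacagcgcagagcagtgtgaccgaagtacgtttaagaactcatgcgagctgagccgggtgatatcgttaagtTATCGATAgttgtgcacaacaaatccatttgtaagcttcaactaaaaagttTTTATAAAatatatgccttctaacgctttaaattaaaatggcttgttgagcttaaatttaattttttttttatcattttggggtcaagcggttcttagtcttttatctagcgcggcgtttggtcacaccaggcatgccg
baf (chr2L:8029212-8029511, plus strand): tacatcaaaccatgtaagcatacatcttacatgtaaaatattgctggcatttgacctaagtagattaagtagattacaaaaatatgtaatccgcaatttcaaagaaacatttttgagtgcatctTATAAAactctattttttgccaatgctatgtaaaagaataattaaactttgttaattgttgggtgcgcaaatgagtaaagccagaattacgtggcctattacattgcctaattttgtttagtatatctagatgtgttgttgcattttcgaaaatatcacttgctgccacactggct
Msp300 first start (chr2L:5100627-5100926, plus strand): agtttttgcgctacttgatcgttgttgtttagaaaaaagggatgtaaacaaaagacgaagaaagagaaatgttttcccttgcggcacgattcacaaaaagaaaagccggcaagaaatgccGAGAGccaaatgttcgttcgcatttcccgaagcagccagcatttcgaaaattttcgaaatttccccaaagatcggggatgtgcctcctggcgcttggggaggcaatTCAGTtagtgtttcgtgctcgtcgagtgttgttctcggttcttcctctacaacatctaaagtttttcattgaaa
Msp300 internal start (chr2L:5108262-5108561, plus strand): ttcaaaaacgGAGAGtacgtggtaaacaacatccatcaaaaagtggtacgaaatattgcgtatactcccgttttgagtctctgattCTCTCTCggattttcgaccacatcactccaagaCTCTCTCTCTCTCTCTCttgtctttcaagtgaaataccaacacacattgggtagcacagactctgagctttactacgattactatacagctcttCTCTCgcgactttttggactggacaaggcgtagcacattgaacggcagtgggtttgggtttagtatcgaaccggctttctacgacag
klar internal start (chr3L:490774-491073, minus strand): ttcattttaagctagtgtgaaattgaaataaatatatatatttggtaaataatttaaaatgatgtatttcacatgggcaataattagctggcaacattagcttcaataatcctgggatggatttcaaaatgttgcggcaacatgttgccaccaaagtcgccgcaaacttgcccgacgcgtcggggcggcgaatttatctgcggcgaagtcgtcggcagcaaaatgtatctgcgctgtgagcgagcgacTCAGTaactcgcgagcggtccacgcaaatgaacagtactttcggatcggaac

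TATCGATA lay in the *Lam* window, with its first base at −140 from the start, and in no other of the 10 windows at the members' first starts. It was present in 9.36% of all 13968 windows of the same length. TATAAA was found in 6 of the 10 windows, against 45.8% of all, TCAGT in 5, against 51.5%, and GAGAG in 2, against 29.7%. The covered internal start of *Msp300* held 11 matches to GAGAG, most of them overlapping in an unbroken CT repeat, where the uncovered first start held 1. Other starts covered in all 6 lists differed. The *klar* start 99518 bp in held 4 matches, and the first starts of *Ote*, *bocks* and *klar* and the *klar* start 49791 bp in held none. A link between matches and coverage was not tested. In the internal *klar* window TCAGT began at −2, over the start itself. These are matches of letters and say nothing on whether a factor was bound.

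Gene body coverage, the share of a gene, start to end, taken up by called S2 regions in percent, was the measure used throughout. The 6 lists held between 4122 and 7957 regions. AGO2 KD lists covered 3.07 and 7.20 Mb and LaminB KD lists 10.5 and 10.3 Mb, against 13.0 and 12.7 Mb in mock lists. No list gives read counts, so the depth behind a value cannot be known and the values carry no counting error. Among regions of like fold enrichment, from 3 to 3.5, the median −log10 p was 4.11 and 6.49 in AGO2 KD, 9.87 and 11.6 in LaminB KD, against 14.7 and 14.5 in mock. The AGO2 KD lists were the lowest in both values, AGO2 KD 1 most of all, and the part this had in the differences of single genes was not tested. Of 6 hemocyte markers, *srp*, *ush* and *Pxn* held a region in each of the 6 lists and *Hml* in 5, while *NimC1* and *He* held none. Of 6 markers of neurons, muscle and germ line, *elav* and *vas* held a region in every list.

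In mock cells S2 regions were found on all 10 genes. Of all 13968 protein-coding genes, 7390 held one in mock 1 and 7324 in mock 2. The median coverage of the 10 genes was 84.7% and 86.3% in the mock libraries, where genes with a region had medians of 49.0% and 51.3%. *Ote*, *bocks* and *baf* were wholly covered, *Lam*, *LBR*, *LamC*, *koi* and *MAN1* lay between 56.3% and 100%, and the very long *Msp300* and *klar* stayed under 6%. Among all genes with a region, 24.0% in mock 1 and 22.3% in mock 2 were wholly covered. In LaminB KD all 10 genes kept a region, where 6986 and 7003 of all genes held one, and the median of the 10 was 77.6% and 74.4%. All genes with a region had medians of 40.1% and 40.7% there. In AGO2 KD 9 of the 10 kept a region, *MAN1* being the exception, where 4413 and 6310 of all genes held one. The median of the 10 was 21.7% in AGO2 KD 1 and 56.9% in AGO2 KD 2.

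**Figure D1:**
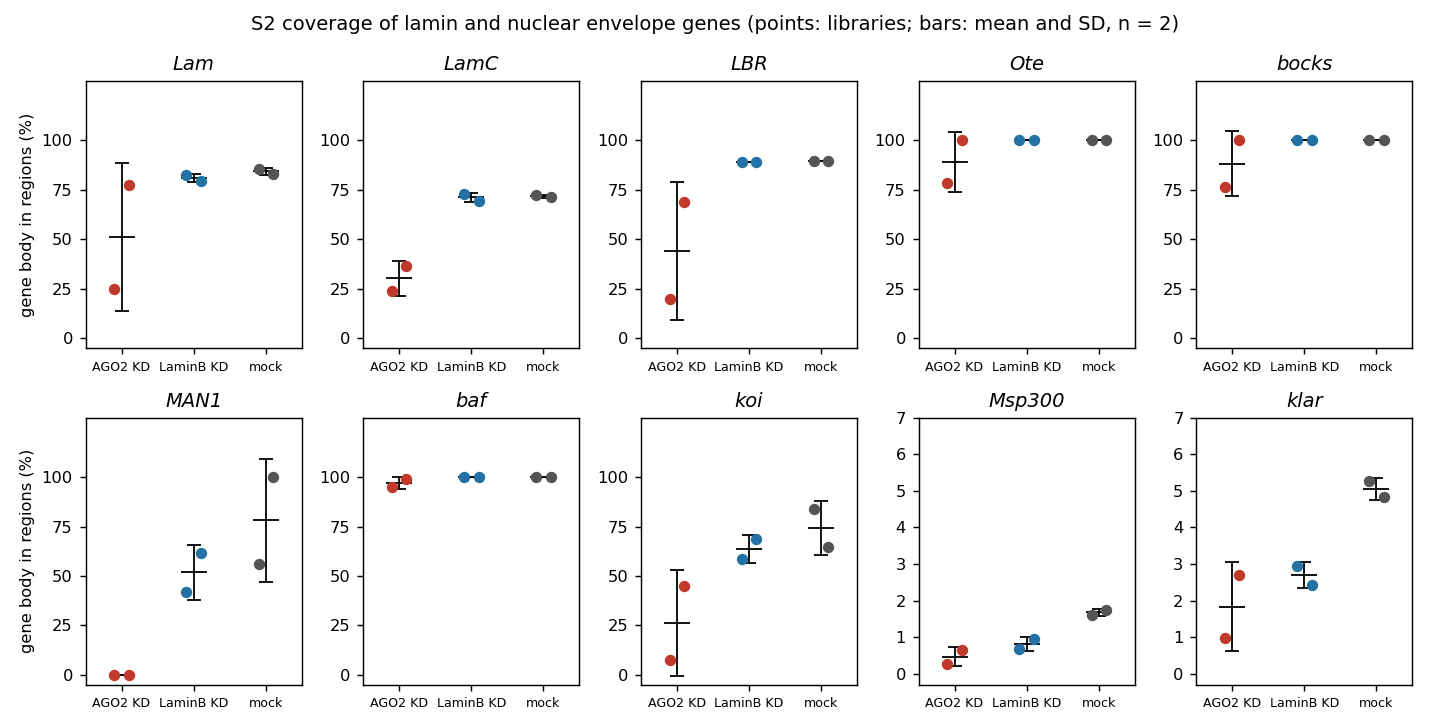
Percentage of each gene body inside called S2 regions (y axis) in AGO2 KD, LaminB KD and mock; points are the 2 libraries of a group, bars their mean and SD, and *Msp300* and *klar* have an axis of their own. *MAN1* lies at 0 in both AGO2 KD libraries, *LamC* lies at 23.9% and 36.6% there against 72.3% and 71.2% in mock, and *Ote*, *bocks* and *baf* stay above 76% everywhere.

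*Lam* (FBgn0002525, chr2L:5542480-5546642, plus strand, 4163 bp, 4 annotated starts) overlaps no other gene, with the helicase gene *Hel25E* 165 bp upstream on the other strand. Coverage was 24.6% and 77.6% in AGO2 KD, 82.3% and 79.4% in LaminB KD, against 85.5% and 83.1% in mock. Most of the gene was thus inside a region in every library but AGO2 KD 1. All 4 starts were covered in all 6 lists, and so was the whole first 1 kb. The region over the starts reached 1026 and 3003 bp into the gene in AGO2 KD, 3051 and 3066 bp in LaminB KD, against 3174 and 3142 bp in mock. A separate short region lay near the 3′ end in every list but AGO2 KD 1, covering 74.8% and 48.2% of the last 500 bp in LaminB KD, against 77.4% and 63.4% in mock. The differences between libraries at *Lam* therefore lay past the first 1 kb. In bulk ChIP, less S2 per cell and fewer cells with S2 on the gene cannot be told apart.

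In AGO2 KD *Lam* coverage was −33.2 percentage points from mock, with a pooled SD of 26.5, and neither AGO2 KD library reached the level of a mock library (two-sided exact permutation p = 0.333, the floor with 2 libraries a side). The size of this difference turned on AGO2 KD 1, being −6.73 points without it and −59.7 points without AGO2 KD 2. In LaminB KD the difference from mock was −3.46 points with a pooled SD of 1.87, again with no overlap (two-sided exact permutation p = 0.333). It was −2.04 without LaminB KD 2, −2.23 without mock 1, −4.88 without LaminB KD 1 and −4.68 without mock 2. The gene of the depleted protein had 95.9% of its mock coverage in LaminB KD. AGO2 KD lay −29.7 points from LaminB KD, with a pooled SD of 26.5, and −3.27 points without AGO2 KD 1 or −56.2 without AGO2 KD 2.

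**Figure D2:**
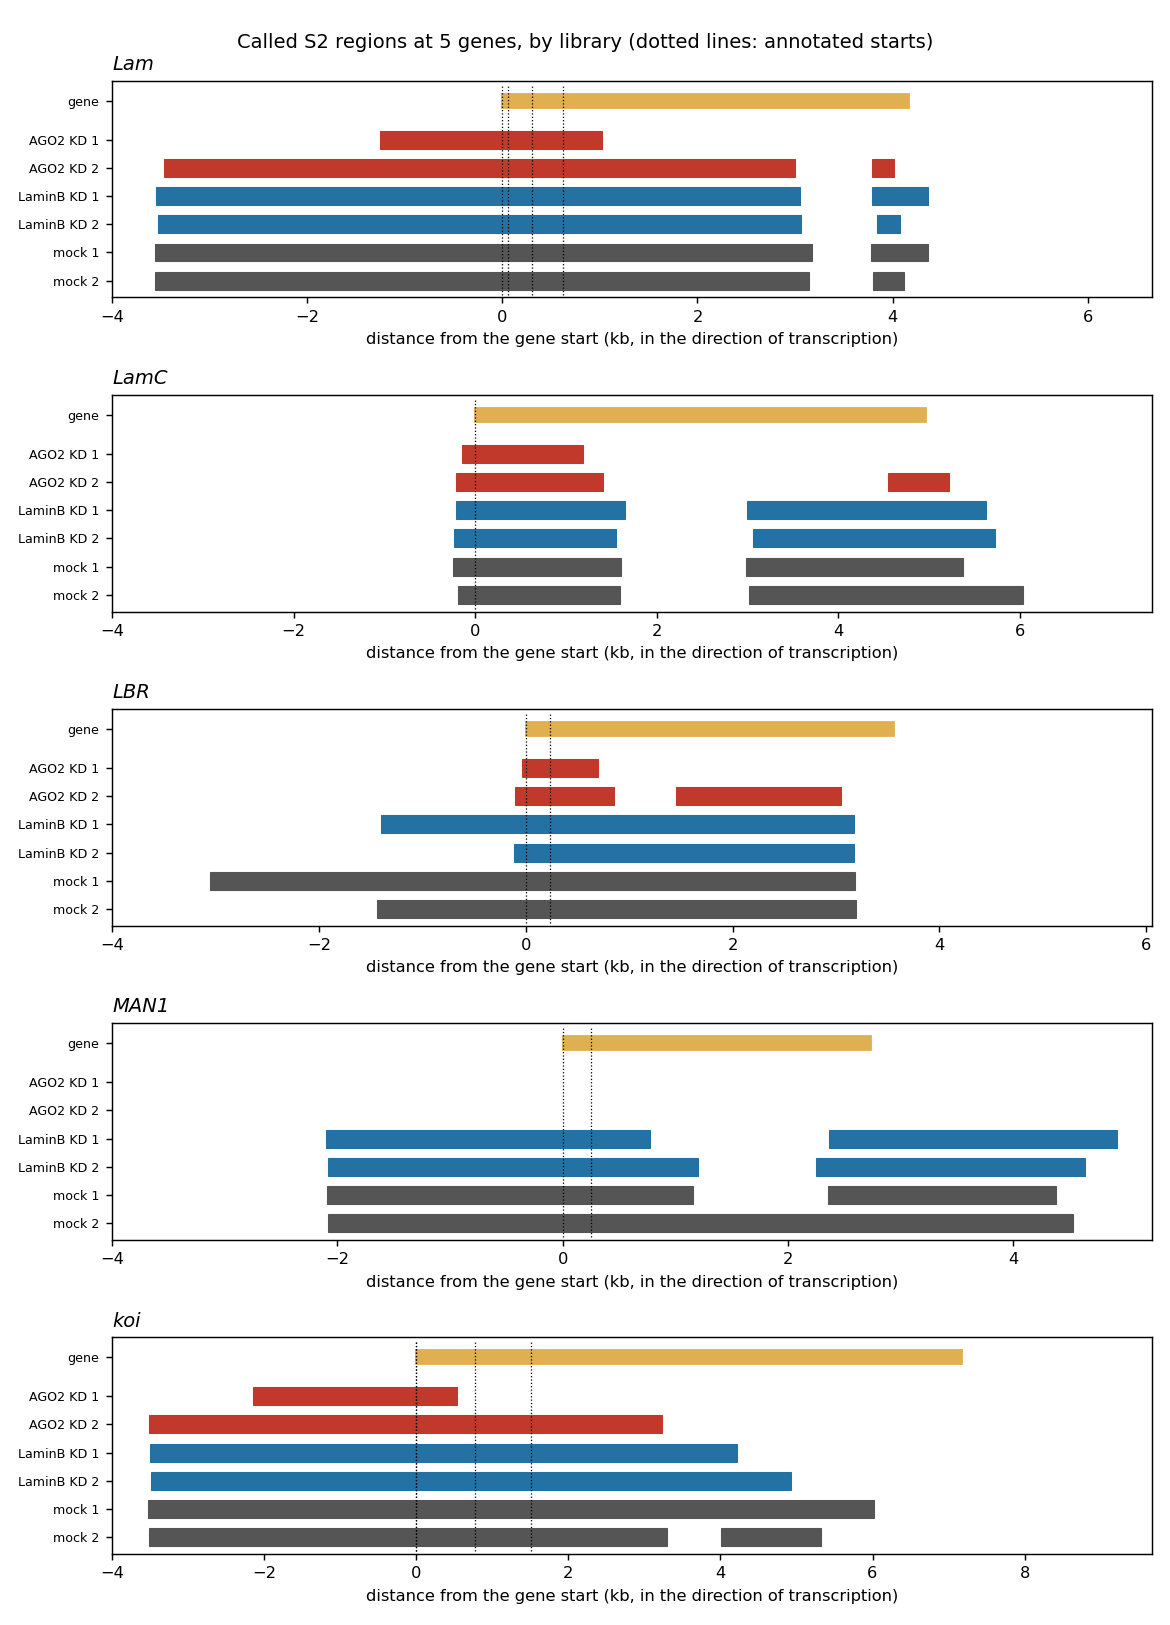
Called S2 regions (bars) in the 6 libraries at 5 genes, against distance from the gene start in kb along the direction of transcription; the gene is drawn on top and dotted lines are annotated starts. The start regions run past the gene start, and at *Lam*, *koi* and *MAN1* they cross neighbours in every list that has one. At *LBR* they do so in LaminB KD 1, mock 1 and mock 2 alone, and at *LamC* they touch only the enclosing *ttv*. The 3′ region of *LamC* is absent from AGO2 KD 1 and short in AGO2 KD 2, and *MAN1* has no region in either AGO2 KD library.

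The region over the *Lam* starts was not private to *Lam*. It measured 2281 and 6466 bp in AGO2 KD, 6600 and 6593 bp in LaminB KD, against 6739 and 6703 bp in mock, and crossed *Hel25E* in all 6 lists. *Hel25E* was covered over 69.4% and 100% of its length in AGO2 KD and 100% in the other 4 libraries. *Oscillin*, 443 bp beyond the 3′ end of *Lam*, held no region in any list. The fold of the region over the starts was 4.61 and 3.60 in AGO2 KD, 4.09 and 3.72 in LaminB KD, against 4.00 and 4.38 in mock, with AGO2 KD on both sides of mock. Each fold is averaged over its region, and that of AGO2 KD 1 spans 2281 bp against 6739 and 6703 bp in mock. The folds therefore do not compare S2 strength at *Lam* alone. Over the 6 libraries the coverage profiles most like that of *Lam*, by the largest absolute difference in any library, belonged to *Non2* (2.65 points), *bor* (5.24 points) and *CG7744* (5.42 points). *Non2* had 22.8% and 79.0% in AGO2 KD, 79.6% and 81.3% in LaminB KD, against 85.1% and 84.6% in mock.

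*LamC* (FBgn0010397, chr2R:14570810-14575771, minus strand, 4962 bp) lies wholly inside *ttv*, a gene on the plus strand, and ChIP does not tell the strands apart. Coverage was 23.9% and 36.6% in AGO2 KD, 72.8% and 69.4% in LaminB KD, against 72.3% and 71.2% in mock. LaminB KD and mock overlapped, with a difference of −0.64 points and a pooled SD of 1.78, whereas AGO2 KD lay −41.5 points from mock with a pooled SD of 6.36, and −40.9 points from LaminB KD with a pooled SD of 6.56. The nearest libraries of AGO2 KD and mock differed by −34.6 points, and without either AGO2 KD library the value moved by less than 1.5 times. Its start region was found in all 6 lists and reached 1187 and 1405 bp in AGO2 KD, 1649 and 1550 bp in LaminB KD, against 1611 and 1593 bp in mock. What was missing in AGO2 KD was mostly a second region over the 3′ part. It was absent from AGO2 KD 1 and 668 bp long in AGO2 KD 2, and was 2636 and 2658 bp long in LaminB KD, against 2391 and 3022 bp in mock. Its fold, averaged over these unlike widths, was 2.64 in AGO2 KD 2, 1.99 and 2.55 in LaminB KD, against 2.30 and 2.38 in mock. With the strongest 4122 regions kept in each list, the *LamC* difference was −6.17 points in AGO2 KD against mock and 19.1 points, with the sign turned, in LaminB KD against mock. With regions of at least 2-fold alone, the LaminB KD difference was −20.4 points.

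LBR, the lamin B receptor, binds B-type lamin and chromatin at the inner membrane. *LBR* (FBgn0034657, chr2R:21720495-21724055, plus strand, 3561 bp) was covered over 19.6% and 68.8% in AGO2 KD, 89.3% in both LaminB KD libraries, and 89.4% and 89.6% in mock. The LaminB KD and mock libraries were almost alike, at −0.22 points with a pooled SD of 0.084, although both LaminB KD values lay below both mock values. The difference was −0.14 without mock 2 and −0.31 without mock 1. AGO2 KD lay −45.4 points from mock with a pooled SD of 24.6, at −20.8 without AGO2 KD 1 and −70.0 without AGO2 KD 2. It lay −45.1 points from LaminB KD with a pooled SD of 24.6, at −20.5 without AGO2 KD 1 and −69.7 without AGO2 KD 2. The starts were covered in every list, but the region over them reached 697 and 852 bp in AGO2 KD, 3180 bp in both LaminB KD libraries, and 3185 and 3191 bp in mock. In LaminB KD 1, mock 1 and mock 2 that region also crossed the neighbour *Tango11*. AGO2 KD 2 had a further 1597 bp region inside the gene, so the uncovered part there was a gap in the body and the 3′ end, where the last 500 bp held no region in either AGO2 KD library. The fold of the start region was 2.93 and 2.66 in AGO2 KD, 2.57 and 2.61 in LaminB KD, against 2.61 and 2.83 in mock, and the groups overlapped. These are averages over regions of unlike width, 731 and 959 bp in AGO2 KD against 6242 and 4627 bp in mock. With the upper 50% of each list by score AGO2 KD lay −89.5 points from mock.

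Among the LEM-domain genes, *Ote* and *bocks* held a region in all 6 lists and *MAN1* in the LaminB KD and mock lists. *Ote* (FBgn0266420, chr2R:18275607-18277177, minus strand, 1571 bp), which encodes a lamin-binding protein needed to keep germline stem cells, was covered over 78.4% and 100% in AGO2 KD and 100% in the LaminB KD and mock libraries. *bocks* (FBgn0037719, chr3R:9589468-9591002, minus strand, 1535 bp) was covered over 76.6% and 100% in AGO2 KD and likewise 100% in the other 4. For both, AGO2 KD 2 tied with mock, so the groups overlapped at differences of −10.8 and −11.7 points. Without AGO2 KD 1 the differences were 0, and without AGO2 KD 2 they were −21.6 and −23.4. The *bocks* region was shared with other genes, being 1692 and 6487 bp long in AGO2 KD, 8639 and 8695 bp in LaminB KD, against 8728 and 8776 bp in mock, and it crossed the overlapping *P58IPK* in every list but AGO2 KD 1. The *Ote* region, at 1245 to 2311 bp, kept mostly to *Ote*. Its fold was 2.99 and 2.44 in AGO2 KD, 3.11 and 3.69 in LaminB KD, against 3.03 and 3.28 in mock. With the upper 50% of each list by score *Ote* had no region in AGO2 KD and the difference from mock was −100 points.

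*MAN1* (FBgn0034962, chr2R:24033974-24036707, plus strand, 2734 bp), whose product restrains BMP signalling at the inner membrane, held no region in either AGO2 KD library. Its coverage was 42.1% and 61.7% in LaminB KD, against 56.3% and 100% in mock. LaminB KD and mock overlapped, with a difference of −26.2 points and a pooled SD of 24.0 (two-sided exact permutation p = 0.667). That value was −48.1 without mock 1, −4.32 without mock 2 and −16.4 without LaminB KD 1. AGO2 KD lay −78.1 points from mock with a pooled SD of 21.9, and −51.9 points from LaminB KD with a pooled SD of 9.80 (two-sided exact permutation p = 0.333 for both). The regions at *MAN1* came in from both sides. The 5′ region also crossed *Chi*, 30 bp away, and the 3′ region crossed *Not11*, 12 bp away, and only in mock 2 did they join into a region of 6611 bp. *Not11* was covered over 0% and 45.1% in AGO2 KD and *Chi* over 0% and 12.6%, against 100% and over 85% in the other libraries, so low coverage in AGO2 KD ran across the neighbours. With only the upper 50% of each list by score, the *MAN1* difference was −6.95 points in AGO2 KD against mock and 1.96 points, with the sign turned, in LaminB KD against mock. With the strongest 4122 regions of each list they were −56.9 and −48.0 points.

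*baf* (FBgn0031977, chr2L:8029462-8030565, plus strand, 1104 bp) lies wholly inside *CG7367*, which is on the minus strand. It was covered over 94.7% and 99.3% in AGO2 KD and 100% in the other 4 libraries. The difference of −2.99 points from mock, and equally from LaminB KD, had a pooled SD of 2.26, was −0.72 without AGO2 KD 1 and −5.25 without AGO2 KD 2, and came from the first bases alone. Regions began 58 bp past the start in AGO2 KD 1 and 8 bp past it in AGO2 KD 2, and before the start in the LaminB KD and mock lists. By fold the *baf* region stood high within every list, at the 93.2nd and 95.0th percentile in AGO2 KD, the 99.1st and 98.3rd in LaminB KD, against the 97.8th and 98.7th in mock.

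*koi* (FBgn0265003, chr2R:6811019-6818199, plus strand, 7181 bp, 4 annotated starts) encodes the somatic SUN-domain protein. Coverage was 7.45% and 45.1% in AGO2 KD, 58.7% and 68.6% in LaminB KD, against 83.9% and 64.4% in mock. AGO2 KD lay −47.9 points from mock with a pooled SD of 21.2, at −29.1 without AGO2 KD 1 and −66.7 without AGO2 KD 2. It lay −37.4 points from LaminB KD with a pooled SD of 19.4, at −18.6 without AGO2 KD 1 and −56.2 without AGO2 KD 2. LaminB KD overlapped mock, at −10.5 points with a pooled SD of 10.9 (two-sided exact permutation p = 0.667), and the value was −0.77 without mock 1, −20.2 without mock 2 and −5.55 without LaminB KD 1. The region over the first start reached 535 and 3236 bp into the gene in AGO2 KD, 4217 and 4928 bp in LaminB KD, against 6025 and 3301 bp in mock. AGO2 KD 2 and mock 2 thus had nearly the same reach from the start, and mock 2 had a second region of 1327 bp further on. No region touched the last 500 bp in any list. The neighbours *ubl* and *CG15237*, which share this region, were wholly covered in all 6 lists.

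The KASH genes *Msp300* and *klar* each span over 100 kb and were described by where their regions lay. *Msp300* (FBgn0261836, chr2L:5100877-5207002, plus strand, 106126 bp, 5 annotated starts) encodes a giant nesprin that positions nuclei in muscle. It held 1 and 2 regions in AGO2 KD, 2 and 3 in LaminB KD, against 6 in each mock library. Coverage was 0.28% and 0.65% in AGO2 KD, 0.67% and 0.95% in LaminB KD, against 1.61% and 1.74% in mock. The first start, which 4 transcripts use, lay in no region in any list. The start 7635 bp in, used by 2 transcripts, was covered in all 6 lists by a region of 295 to 422 bp, and the start 45509 bp in was covered in every list but AGO2 KD 1. The start 50872 bp in was covered in mock 1 only, and the one 7937 bp in was covered in none.

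The region at 7635 bp stood high by fold in each list, least so in AGO2 KD 1. Its fold was 4.45 and 5.94 in AGO2 KD, 6.67 and 5.51 in LaminB KD, against 6.34 and 7.12 in mock. Within the lists, which differ in length, this was the 84.1st and 98.8th percentile of the AGO2 KD lists, the 99.5th and 98.8th of the LaminB KD lists, and the 99.6th and 99.9th of the mock lists. All the *Msp300* regions overlapped exons. Those past 58 kb were weak, with fold from 1.91 to 2.37, and came in mock 1, mock 2 and LaminB KD 2 alone. They made up most of the difference of −1.22 points between AGO2 KD and mock (pooled SD 0.195) and of −0.86 points between LaminB KD and mock (pooled SD 0.155). With the strongest 4122 regions kept in each list these differences were −0.28 and −0.08 points. AGO2 KD lay −0.35 points from LaminB KD, with a pooled SD of 0.232, at −0.17 without AGO2 KD 1, −0.54 without AGO2 KD 2 and −0.21 without LaminB KD 2.

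*klar* (FBgn0001316, chr3L:434083-540614, minus strand, 106532 bp, 5 annotated starts) encodes a KASH protein known for nuclear migration in photoreceptors and for lipid droplet transport in the embryo. It held 4 and 6 regions in AGO2 KD, 7 and 6 in LaminB KD, against 8 and 9 in mock. Coverage was 0.97% and 2.69% in AGO2 KD, 2.94% and 2.44% in LaminB KD, against 5.28% and 4.84% in mock. Starts at 0, 49791 and 99518 bp from the gene start lay in a region in all 6 lists, the start at 92482 bp in every list but AGO2 KD 1, and the start at 102840 bp in none. The first of these shared its region with the divergent gene *BORCS6* and, in every list but AGO2 KD 1, with *Cypl* and *Hipk*. The region at 99518 bp had a fold of 4.48 and 5.59 in AGO2 KD, 5.22 and 5.67 in LaminB KD, against 5.20 and 5.61 in mock.

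A further *klar* region lay over an exon at no annotated start of *klar*. It was 251 and 439 bp long in AGO2 KD, 512 and 511 bp in LaminB KD, against 589 and 540 bp in mock (chr3L:505815-506403 in mock 1). The nearest annotated *klar* start was between 14992 and 15227 bp away in all 6 lists. Starts of the other genes that overlap *klar* were not compared with it. Its fold was 3.07 and 3.89 in AGO2 KD, 3.56 and 3.69 in LaminB KD, against 4.67 and 4.25 in mock. Of the other regions of *klar*, a single one lay in an intron, in LaminB KD 1 and in mock 2, and the rest overlapped exons.

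*klar* coverage in AGO2 KD lay −3.23 points from mock with a pooled SD of 0.888, and in LaminB KD −2.37 points with a pooled SD of 0.332, with no overlap in either. With the strongest 4122 regions kept in each list they were −1.56 and −0.98 points. AGO2 KD and LaminB KD overlapped at −0.86 points with a pooled SD of 0.897, which was 0.00094 without AGO2 KD 1 and −1.72 without AGO2 KD 2. Low coverage was the rule among long genes. For the 313 genes of 50 kb or more the median was 0.055% and 0.323% in AGO2 KD, 0.339% and 0.356% in LaminB KD, against 0.452% and 0.378% in mock, so *Msp300* and *klar* lay above that median in every library. It includes long genes without a region, since from 158 (AGO2 KD 1) to 218 (mock 1) of the 313 held one.

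**Figure D3:**
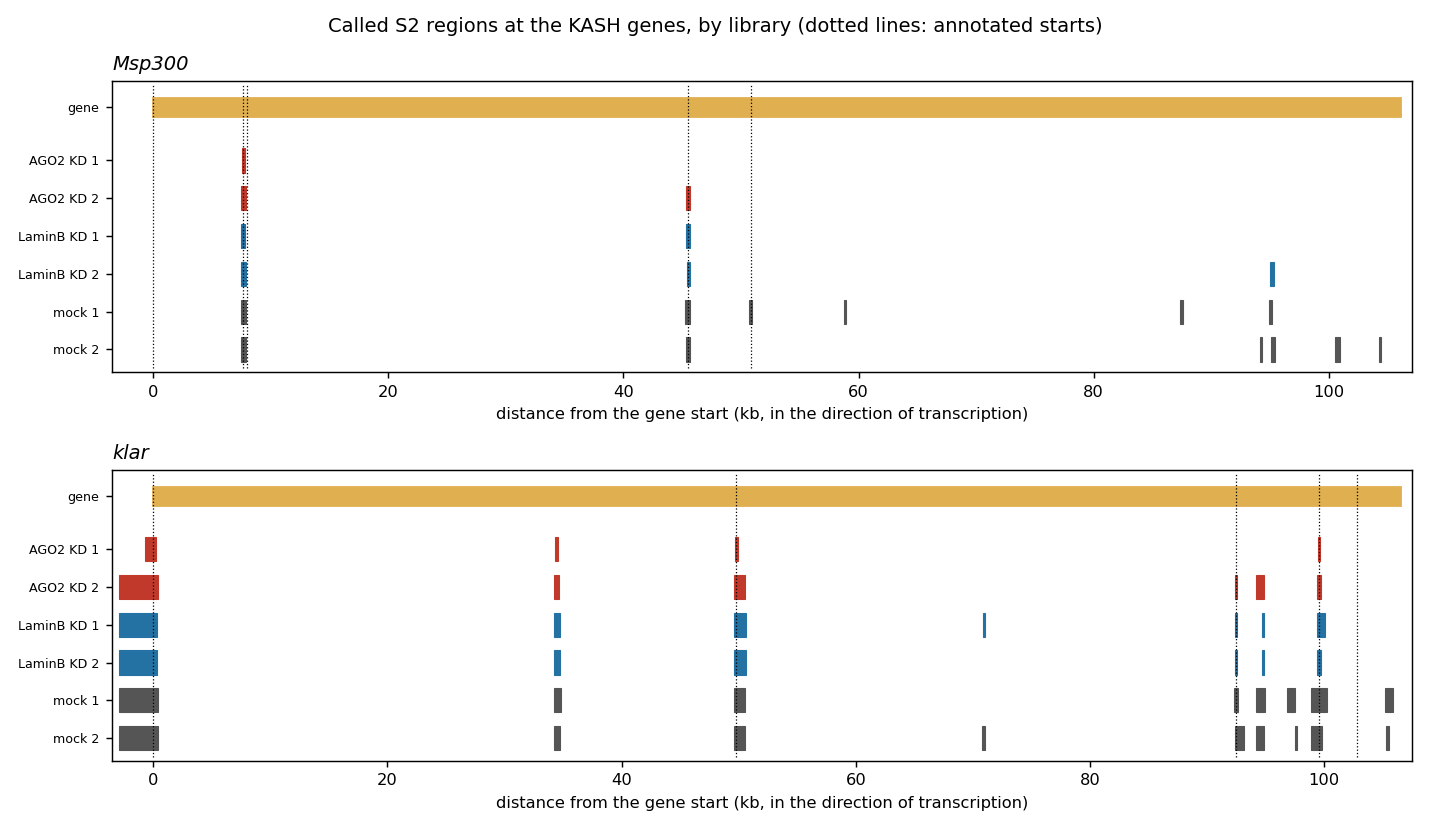
Called S2 regions (bars) in the 6 libraries along *Msp300* and *klar*, against distance from the gene start in kb along the direction of transcription; the gene is drawn on top and dotted lines are annotated starts. Short regions sit at internal starts in nearly every library, the first *Msp300* start has none, and the regions past 58 kb of *Msp300* are in both mock libraries and LaminB KD 2.

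Set side by side, the 10 genes followed the lists as a whole. In AGO2 KD against mock, 8 of 10 were lower in both libraries (*Ote* and *bocks* being the exceptions), where 76.8% of the 7554 genes tested were. None was higher in both libraries (0.053% of genes). By a margin of at least 10 points 4 were lower (*LamC*, *LBR*, *MAN1* and *koi*), against 44.9% of genes, and none was higher, against 0% of genes. *MAN1*, 1 of 10, lost its region in both libraries, where 11.8% of genes did. The median difference was −22.4 points over the 10 genes and −22.7 over all genes tested, and the median gene kept 45.7% of its mock coverage among the 10 and 34.7% among all. These shares lie near the background, so nothing particular to the 10 genes is read from them. Within the 10, *Msp300* kept 27.5%, *koi* 35.4%, *klar* 36.2%, *LamC* 42.2%, *LBR* 49.3%, *Lam* 60.6%, *bocks* 88.3%, *Ote* 89.2% and *baf* 97.0%.

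In LaminB KD against mock, which shares its mock libraries with the comparison above, 4 of 10 were lower in both libraries (*Lam*, *LBR*, *Msp300* and *klar*), where 38.2% of 7601 genes were. None was higher (3.72% of genes), and by the margin of 10 points none was lower (10.6%) and none higher (0.382%). No region was lost, against 2.3% of genes. The median difference was −0.75 points over the 10 genes and −1.91 over all. As a share of mock coverage, *Msp300* kept 48.5%, *klar* 53.2%, *MAN1* 66.5%, *koi* 85.8%, *Lam* 95.9%, *LamC* 99.1% and *LBR* 99.7%, with *Ote*, *bocks* and *baf* at 100%. The median was 97.5% over the 10 genes and 90.3% over all. In AGO2 KD against LaminB KD, 7 of 10 were lower in both libraries, with *Ote*, *bocks* and *klar* overlapping, where 66.5% of 7233 genes were, and none was higher (0.138%). By the margin of 10 points 4 were lower (32.2%) and none higher (0%), and 1 lost its region (7.92%). The median was −20.7 points over the 10 genes and −15.7 over all.

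**Figure D4:**
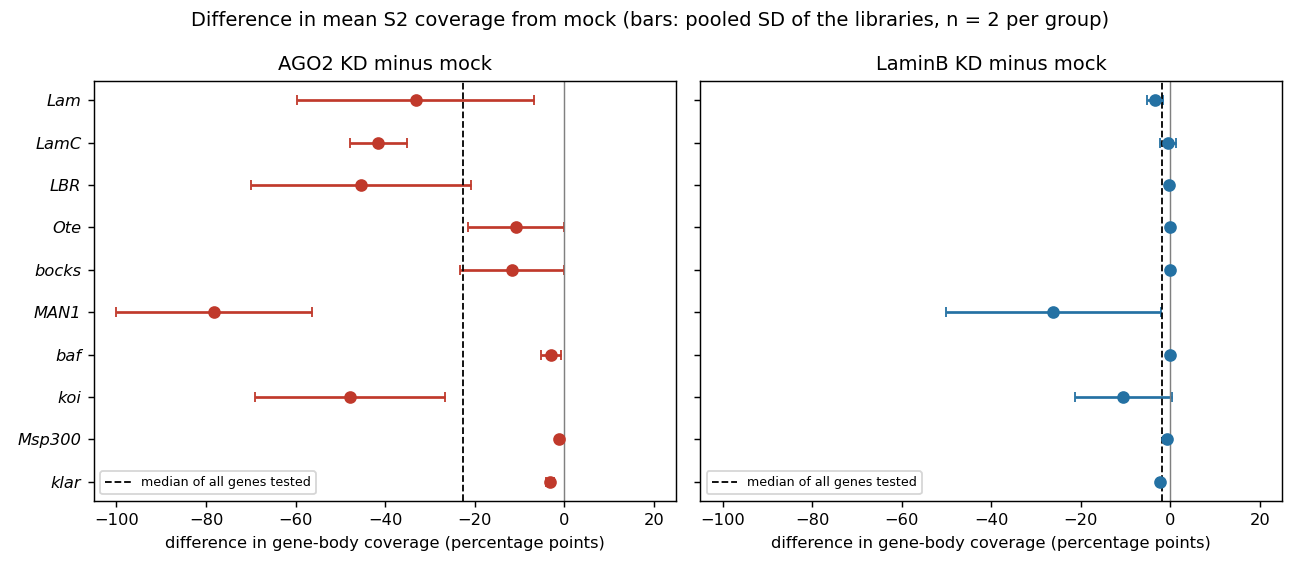
Difference in mean gene body coverage in percentage points (x axis), AGO2 KD minus mock on the left and LaminB KD minus mock on the right, with the pooled SD of the libraries as bars (n = 2 per group); the dashed line is the median of all genes tested and the grey line is 0. The AGO2 KD differences spread from −78.1 (*MAN1*) to −1.22 (*Msp300*) around a median of −22.7, and those of LaminB KD from −26.2 (*MAN1*) to 0. *Msp300* and *klar*, at 1.68% and 5.06% in mock, could lie no further below it than that.

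Windows at both ends of each gene were then examined. The first 500 bp were touched by a region in 8 of the 10 genes in each AGO2 KD library, and in 9 in every other library, with *Msp300* absent throughout and *MAN1* in AGO2 KD. The last 500 bp were touched in 3 and 5 genes in AGO2 KD and in 7 in each LaminB KD and mock library. Over all genes with a region in a given library, the last 500 bp were touched in 23.7% and 38.0% in AGO2 KD, 50.9% and 50.4% in LaminB KD, against 57.3% and 56.5% in mock. The first 500 bp stayed between 86.7% and 89.5%.

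A wider list of 16 genes with roles at the envelope was examined beside them, among them torsin, lamin-processing and ESCRT genes. Of these, 14 held a region in some list, *fs(1)Ya* and *spag4* being without. In AGO2 KD against mock 9 were lower in both libraries, 6 of them by the margin, and none was higher, with a median of −34.4 points. Over all genes the shares were 76.8% and 44.9% and the median −22.7 points. In LaminB KD against mock 4 were lower, 2 of them by the margin, and none was higher, with a median of −0.65 points, beside 38.2%, 10.6% and −1.91 points over all genes. *Icmt*, which methylates the farnesylated end of proteins such as B-type lamin, had 0% in both AGO2 KD libraries and 10.1% and 84.5% in LaminB KD, against 84.9% and 84.5% in mock. *Vps4*, the ATPase of the ESCRT machinery, had 20.3% and 46.7% in AGO2 KD, 100% and 74.7% in LaminB KD, against 100% in both mock libraries. *Lpin*, the lipin phosphatase of lipid synthesis, had 6.81% and 22.0% in AGO2 KD, 45.1% and 34.3% in LaminB KD, against 81.6% and 71.7% in mock, and its LaminB KD libraries lay below mock by more than the spread of the replicates. AGO2 KD against LaminB KD gave 4 lower, all by the margin, none higher and a median of −23.5 points, beside 66.5%, 32.2% and −15.7 points over all genes. Nothing particular to the list is read from these counts.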

How the data were processed

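S2 ChIP-seq was measured in 6 IP libraries of Kc167 cells. The input samples enter only through the calls, and which input entered each call is not given in the sources used here. Per the labels, the authors trimmed reads with cutadapt 1.10, aligned them to dm6 with Bowtie2, removed duplicates with Picard 2.11.0 and called broad regions per library with MACS2 2.1.1.20160309. The deposited score is 10 times −log10 q cut to whole numbers, with 1 exception. The deposited fold enrichment is a ratio of IP over the background from input, averaged over a region. The −log10 p and −log10 q values deposited by the authors are region averages as well. Fold and score served to rank and filter regions, each list by itself, and folds of single regions are given as deposited, with no test.

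Coverage was computed with python 3.11.15, numpy 2.4.6 and scipy 1.17.1 on Ensembl 115 gene models (BDGP6.54, Release 6 coordinates), and the scripts were tested on simulated lists. A gene was lower or higher when both libraries of a group lay beyond both of the other. Tested genes had a region in a compared library, and a region was lost when neither library of the first group and both of the second held one. The lists hold no counts, so the read-based test of the study could not be run. The smallest exact p of 2 against 2 libraries is 0.333, so no comparison can pass 0.05. Replicate lists shared at most 1 identical region.

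All 10 genes were named, with some of the genes overlapping them or sharing their regions. The 7 genes overlapping *klar* and the 4 overlapping *Msp300* were not named. At most 4 of the 16 further envelope genes were to be named, those with the largest mock coverage or AGO2 KD difference. Because 7 tied at 100% in mock, the 3 largest differences were used. The genes and lists were chosen with earlier results of these data known. Promoter windows came from the RefSeq Release 6 genome. Alternatives covered score and fold filters, lists of equal length, bases free of other genes, the first 1 kb, a margin of 10 points, a replicate block and leaving out each library.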

Additional observations from a re-analysis of the deposited data

How the results depend on the processing

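No value called lower or higher changed sign under an alternative. Among values that were not called, *LamC* in LaminB KD against mock lay at 19.1 points with 4122 regions in each list, against −0.64, and at 1.05 without LaminB KD 2. *MAN1* in the same comparison lay at 1.96 points with the upper 50% of each list, against −26.2, and *klar* in AGO2 KD against LaminB KD at 0.65 over the first 1 kb, against −0.86. Over the first 1 kb alone, 4, 1 and 3 genes were lower in AGO2 KD against mock, LaminB KD against mock and AGO2 KD against LaminB KD, where 8, 4 and 7 were over whole genes, and the *Lam* difference was 0 in all 3 comparisons. With the margin of 10 points the counts were 4, 0 and 4. Apart from the margin, no share over all genes is given for the alternatives. Nothing particular to the 10 genes is therefore read from their counts. In LaminB KD against mock, *Lam* lay at −10.8 points with the upper 50% of each list and at −6.35 with 4122 regions in each list, where 1 gene was higher (*LamC*). Leaving out each library in turn gave 8 to 10, 5 to 6 and 7 to 10 genes lower, and 0 to 1 higher in LaminB KD against mock (1 without LaminB KD 2). The *Lam* difference then ran from −59.7 to −6.73 points in AGO2 KD against mock and from −56.2 to −3.27 in AGO2 KD against LaminB KD. Replicate differences were nearly uncorrelated between groups (correlations −0.032, 0.057 and −0.039 over 7611 genes). As these rest on region coverage alone, they do not settle whether replicate numbers pair the libraries. The replicate block gave 8, 5 and 7 genes lower. Of 264 values of the other genes under alternatives, 62 moved by at least the replicate spread, and 214 had the sign of the main value. *LamC* and *baf* have no base free of other genes, so that alternative gave no value for them. Depth is unknown, so a missing region at a shallow library does not show that S2 was absent.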
